A study of Mus musculus with 3 samples.

Results

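The complement genes described here are *C1qa*, *C1qb*, *C1qc*, *C3*, *C3ar1*, *C5ar1*, *Cfb*, *Cfp* and *Serping1*. They are 9 of the 31053 genes measured, were taken by symbol, and all 9 were found. Their values are UMI counts (unique molecular identifiers, each tagging a captured RNA molecule) per class of cells and library. The data are 3 single-cell RNA-seq (scRNA-seq) libraries of live cells from the brains of female wild-type C57BL/6 mice that were 6 to 8 weeks old when sourced and carried a glioblastoma (GBM). The tumors grew from brain tumor-initiating cells of NPcis mice, which bear Nf1 and Trp53 mutations, and a 2 mm section around the injection site was collected 4 weeks after implantation. The library called vehicle replicate 2 came from mice injected with saline, and niacin replicates 1 and 2 came from mice given niacin intraperitoneally every day from day 7, at 100 mg/kg. Each library was a pool of brains: the labels give 5 control mice, 10 niacin mice and 4 tissues per pool. A p-value below therefore measures the spread between 3 pools, and with 1 vehicle library niacin was not tested against vehicle. That spread also includes the treatment. The libraries shared cell barcodes, as described below, so the 3 pools may not be independent and the p-values may be too small.

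Complement is a cascade of proteins that mark surfaces for clearance and call in immune cells. The C1q chains, encoded by *C1qa*, *C1qb* and *C1qc*, assemble into the recognition molecule of the classical pathway, and microglia, the resident macrophages of the brain, are known as its main local source. Complement C3 is the protein on which the pathways converge, factor B (*Cfb*) is the protease of the alternative pathway, and properdin (*Cfp*) stabilizes that pathway's convertase. The receptors encoded by *C3ar1* and *C5ar1* bind the anaphylatoxins C3a and C5a and are known from myeloid cells. *Serping1* encodes the C1 inhibitor, which inactivates C1r and C1s.

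All 9 genes lie on the minus strand in GRCm38, the build named mm10 in the submitters' processing notes. *C1qb* (chr4:136880129-136886187), *C1qc* (chr4:136889804-136893065) and *C1qa* (chr4:136895917-136898803) lie side by side within 18675 bases, with gaps of 3616 and 2851 bases between them. *C3* (chr17:57203970-57228136) and *Cfb* (chr17:34856374-34862518) are on one chromosome but apart. *C3ar1* is at chr6:122847138-122856161, *C5ar1* at chr7:16246743-16259540, *Cfp* at chrX:20925454-20931555 and *Serping1* at chr2:84765387-84775444. The RefSeq promoter table held a window for 6 of the 9 genes. For 2 neighbours of the C1q cluster, for *C5ar1* and for *C3*, the 250 bases before the RefSeq start (GRCm38.p6, minus strand, written 5′ to 3′) are shown because these genes had different class patterns, described below. Capitals mark ACTTCCT, the reverse complement of AGGAAGT, a core recognised by the myeloid factor PU.1, which was searched on both strands. It was chosen after the letters had been seen.
C1qb (chr4:136886201-136886450): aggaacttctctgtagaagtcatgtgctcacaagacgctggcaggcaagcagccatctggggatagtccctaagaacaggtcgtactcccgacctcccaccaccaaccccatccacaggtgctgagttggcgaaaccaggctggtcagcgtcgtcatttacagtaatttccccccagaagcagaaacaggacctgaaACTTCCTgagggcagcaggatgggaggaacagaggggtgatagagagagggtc
C1qc (chr4:136892915-136893164): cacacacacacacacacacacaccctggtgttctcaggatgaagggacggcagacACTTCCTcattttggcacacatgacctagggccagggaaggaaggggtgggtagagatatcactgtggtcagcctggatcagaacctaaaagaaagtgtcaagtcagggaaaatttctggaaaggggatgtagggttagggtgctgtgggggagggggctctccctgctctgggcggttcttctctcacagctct
C5ar1 (chr7:16259339-16259588): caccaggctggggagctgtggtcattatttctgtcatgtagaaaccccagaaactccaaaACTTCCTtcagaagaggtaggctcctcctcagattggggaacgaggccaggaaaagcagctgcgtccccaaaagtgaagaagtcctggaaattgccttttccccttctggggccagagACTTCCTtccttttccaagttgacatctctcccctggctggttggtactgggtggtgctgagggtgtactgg
C3 (chr17:57228137-57228386): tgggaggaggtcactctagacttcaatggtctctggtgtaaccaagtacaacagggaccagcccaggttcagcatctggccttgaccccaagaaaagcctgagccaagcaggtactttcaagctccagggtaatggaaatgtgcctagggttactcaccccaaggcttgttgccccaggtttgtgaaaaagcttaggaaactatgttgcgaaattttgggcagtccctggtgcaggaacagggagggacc
The letters occurred 1 time in the *C1qb* window, 53 bases before the start, and 1 time in the *C1qc* window, 195 bases before it. The *C5ar1* window held them 2 times, 190 and 72 bases before the start, and the *C3*, *C3ar1* and *Cfp* windows did not hold them. Of the windows printed, those of *C5ar1* and *C1qc* overlap the gene coordinates given above, because the RefSeq starts differ from these. Both *C5ar1* matches lie inside the *C5ar1* coordinates, and the *C1qc* match lies outside those of *C1qc*. Of 32851 promoter windows of this length, 7.69% held the letters on either strand. A match describes the letters in the window and is not evidence of binding.

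Of 6947 barcodes, 5528 passed the filters (200 or more genes detected, no more than 20% of UMIs mitochondrial), from 1514 to 2203 per library, and library totals ran from 8301228 to 10359526 UMIs. Cells were put in classes by the UMIs of 14 lineage marker lists that hold no complement gene, and a class name below means cells like that type by these markers. A class was given to 4810 cells, 497 carried markers of several lists and 221 carried too few. Comparisons were made over the 7 classes that reached 10 cells in each library. In vehicle replicate 2, niacin replicate 1 and niacin replicate 2, an order kept below, there were 447, 946 and 1231 microglia, 320, 150 and 146 infiltrating monocytes and macrophages, and 82, 79 and 70 neutrophils. The top 10 genes of each of these 3 classes held 6, 4 and 7 of its own markers and none of another list. Libraries shared many cell barcodes: 478 between vehicle replicate 2 and niacin replicate 1, 458 between vehicle replicate 2 and niacin replicate 2, and 892 between the niacin libraries, with a median depth ratio of 20.6, 20.4 and 13.9 between the copies. Of the infiltrating cells, 145 of 150 in niacin replicate 1 and 136 of 146 in niacin replicate 2 had a shared barcode, and their median depth was 726.5 and 740.5 UMIs, against 2924 in vehicle replicate 2. The main values that rest on these cells are therefore given also without shared barcodes, or with each shared barcode kept only where it is deepest.

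C1q RNA was a mark of microglia in all 3 libraries. In CPM, the UMIs of the gene per 1000000 UMIs of the class, *C1qa* stood at 6060.15, 8645.5 and 8489.9 in microglia, against 619, 272 and 481 in infiltrating monocytes and macrophages. *C1qb* stood at 4642, 7399.7 and 7406 in microglia, against 632, 234 and 674. *C1qc* stood at 4774, 5575 and 5495, against 458, 162 and 250.4. The lowest microglial library was above the highest infiltrating library for each chain. Outside the classes compared, 7 border-associated macrophages, described below, held *C1qa* at 8516 CPM pooled over libraries, so a high *C1qa* level was not particular to microglia. With every cell counted, the infiltrating libraries were in turn above the remaining 5 classes. In those 5 classes mean *C1qa* ran from 39.8 CPM in nonclassical monocytes to 77.9 CPM in choroid plexus cells, and the ranges of classes next to each other in this order overlapped. The step between infiltrating cells and these classes did not hold in niacin replicate 1 with shared barcodes kept only where deepest. Infiltrating cells then held *C1qa* at 30.5, *C1qb* at 44.1 and *C1qc* at 37.3 CPM, and choroid plexus cells 111, 101 and 71.8 CPM.

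The difference between microglia and infiltrating cells was larger than the spread between libraries for each chain. By edgeR's quasi-likelihood F-test, with p adjusted by Benjamini-Hochberg, *C1qa* was higher in microglia by a log2 fold change of 3.82 (SE 0.38, adjusted p = 3.8e-06), *C1qb* by 3.43 (SE 0.41, adjusted p = 1.9e-05) and *C1qc* by 3.98 (SE 0.37, adjusted p = 2.4e-06). Within libraries *C1qa* was 9.78, 31.8 and 17.7 times as high. Without shared barcodes, which left 5 and 10 infiltrating cells in the niacin libraries, the same fit gave *C1qa* 4.59, *C1qb* 3.92 and *C1qc* 4.76. The largest adjusted p over the 16 alternatives was 0.0031, for *C1qb*.

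Some C1q counts in other classes were near those of T cells, used here as a background. T cells, which do not make C1q, had a *C1qa* UMI in 3.41%, 8.33% and 15.8% of cells after each cell was thinned to 2000 UMIs (median depth before thinning 5921, 7051 and 6970 UMIs). In neutrophils the share was 8.00%, 7.69% and 6.98% (median depth 3498, 7820 and 9148), so it did not stand above the T cells in the niacin libraries, and the 95% exact interval of vehicle replicate 2, from 0.984% to 26.0%, covers the T-cell share. In infiltrating cells it was 28.2% of 202 cells in vehicle replicate 2 and 12.5% of 16 and of 24 cells in the niacin libraries. The last 2 rest on few cells and lie within the range of the T cells over the 3 libraries, above the T cells of niacin replicate 1 and below those of niacin replicate 2. By level, with shared barcodes kept only where deepest, infiltrating cells of the niacin libraries held *C1qa* at 30.5 and 393 CPM. T cells there held 56.3 and 64.8 CPM. Summed C1q in infiltrating cells of vehicle replicate 2 stood at 1710 CPM in every cell and at 679 CPM without shared barcodes. The source of the C1q counts in T cells and the part of free RNA in the C1q of infiltrating cells were not tested. Neutrophils were lower than infiltrating cells in *C1qa* (-2.47, SE 0.31, adjusted p = 1.2e-04), *C1qb* (-2.13, SE 0.33, adjusted p = 3.9e-04) and *C1qc* (-2.25, SE 0.39, adjusted p = 8.0e-04). The *C1qb* call was lost with shared barcodes kept only where deepest (-1.92, adjusted p = 0.051).

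**Figure D1:**
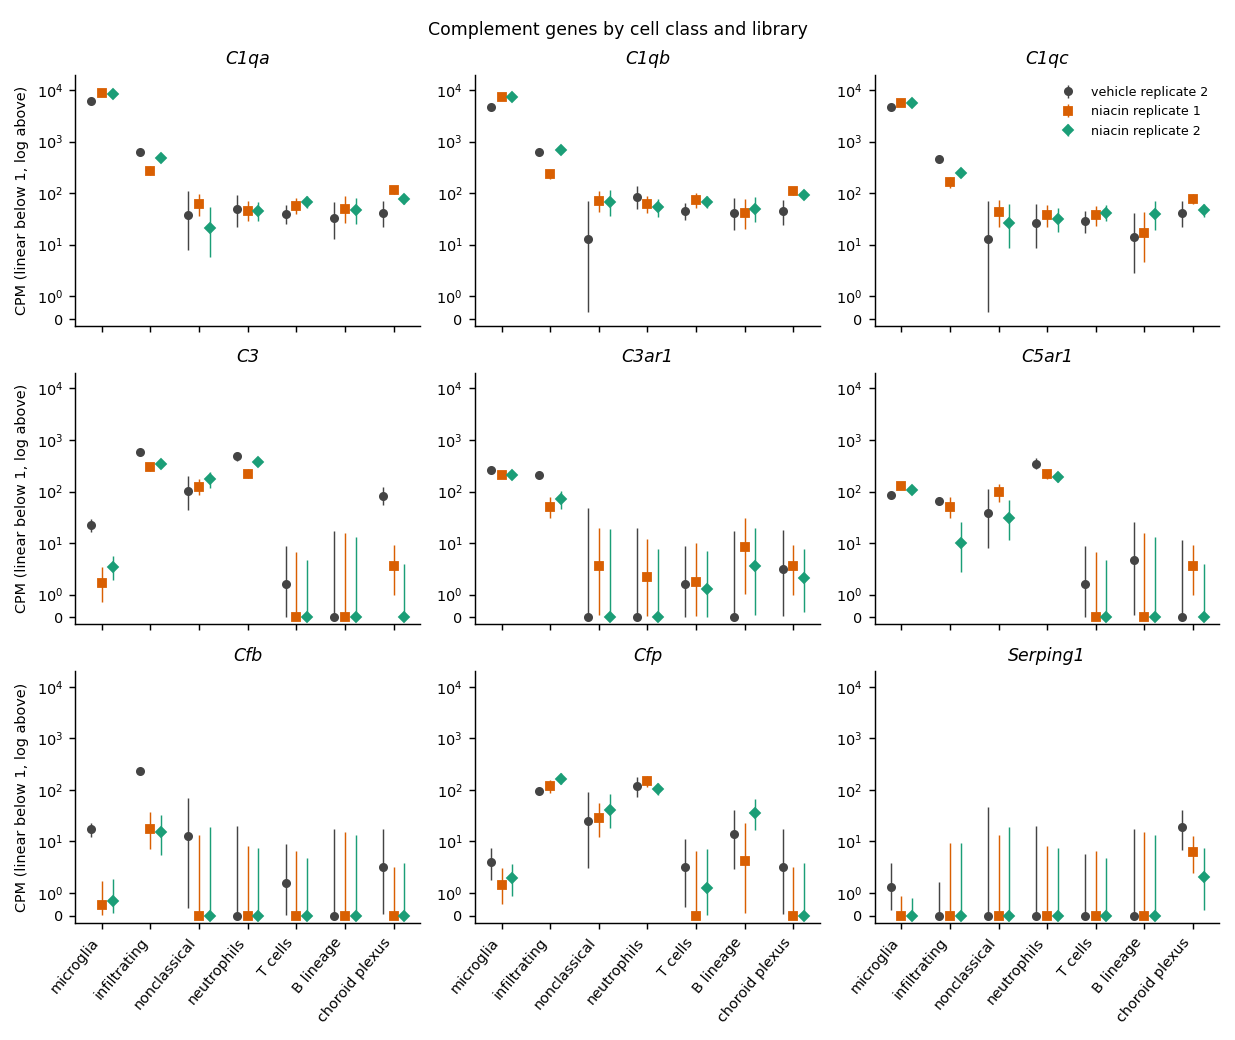
CPM (vertical axis, linear below 1 and logarithmic above) of each complement gene in 7 cell classes (horizontal axis), with 1 point per library and bars for exact 95% Poisson intervals, which cover counting error only. The C1q chains stand at 4642 CPM or more in microglia and at 674 CPM or less in the other classes shown, while *C3* and *Cfp* are high in infiltrating cells and neutrophils and *Cfb* is high in infiltrating cells of vehicle replicate 2.

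Within microglia, C1q was close to universal. After thinning to 2000 UMIs, a UMI of all 3 chains was found in 98.5% of 275, 99.5% of 661 and 99.7% of 647 cells, and no cell lacked all of them. A thinned microglial cell carried a median of 28, 41 and 43 C1q UMIs, with 10th percentiles of 13, 24 and 27 and 90th percentiles of 47, 63 and 62. The vehicle cells sat lower at each of these points. Across cells the counts of 2 chains had Pearson correlations from 0.470 to 0.635 over the 3 pairs and 3 libraries. These points share their library and depth, and the thinned total is fixed. Summed C1q also varied with the depth of the cell, and was lowest in cells of 1000 to under 2000 UMIs, at 7762, 13410 and 13776 CPM, against 17336, 24374 and 22118 CPM in cells of 10000 or more. Cells of 1000 to under 2000 UMIs also had the highest median mitochondrial share of any depth, 6.65%, 4.05% and 6.35%, and its part in the lower C1q was not tested. Of the cells of 10000 or more UMIs, 41 of 56, 34 of 35 and 48 of 50 had a shared barcode.

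**Figure D2:**
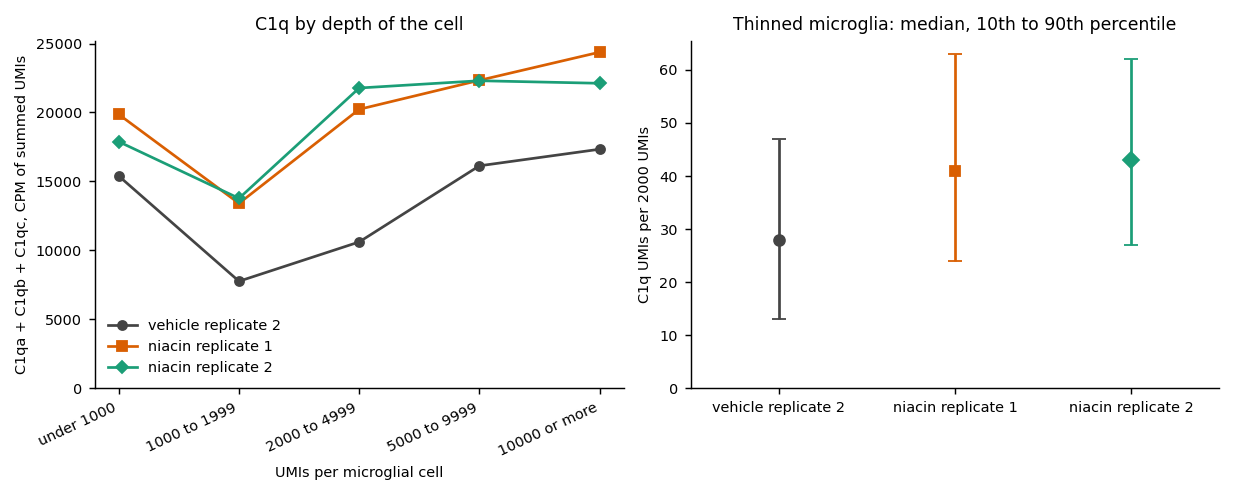
Left, summed CPM of the 3 C1q chains in microglia (vertical axis) by UMIs per cell (horizontal axis), 1 line per library. Right, median and 10th to 90th percentile of C1q UMIs in microglia thinned to 2000 UMIs, with medians of 28 in vehicle replicate 2 and 41 and 43 in the niacin libraries.

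*C3*, *Cfb* and *Cfp*, the components of the alternative pathway among these genes, had the opposite pattern to C1q. *C3* stood at 581, 297 and 346 CPM in infiltrating monocytes and macrophages and at 482, 222 and 380 CPM in neutrophils. These ranges overlap. Without shared barcodes infiltrating cells held 588, 149.6 and 394 CPM of *C3*, from 437, 2 and 15 UMIs. Nonclassical monocytes held 102, 125 and 171 CPM, below every infiltrating and neutrophil library when every cell was counted. Microglia held 22.3, 1.67 and 3.41 CPM, from 51, 7 and 16 UMIs, and T cells held 1, 0 and 0 UMIs. Choroid plexus cells held 82.0 CPM of *C3* in vehicle replicate 2, from 26 UMIs, and 3.53 and 0 CPM in the niacin libraries. The vehicle count was 26 also without shared barcodes, in 29 cells.

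*Cfb* was uneven between libraries. Infiltrating cells held 229 CPM in vehicle replicate 2, from 505 UMIs, and 17.8 and 15.02 CPM in the niacin libraries, from 7 and 6 UMIs. Microglia held 39, 2 and 3 UMIs, and neutrophils and B-lineage cells held 0 in all 3 libraries. *Cfp* stood at 96.4, 117 and 165 CPM in infiltrating cells, 118, 148 and 105 CPM in neutrophils and 3.94, 1.43 and 1.92 CPM in microglia. Without shared barcodes infiltrating cells held 62, 2 and 1 *Cfp* UMIs, or 83.4, 149.6 and 26.3 CPM. B-lineage cells held 13.9, 4.17 and 35.5 CPM of *Cfp*, from 3, 1 and 10 UMIs. With every cell counted infiltrating cells and neutrophils overlapped for *Cfp*, and both were above nonclassical monocytes, at 25.5, 28.5 and 41.5 CPM.

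These differences also passed the test. By edgeR's quasi-likelihood F-test, with p adjusted by Benjamini-Hochberg, microglia were below infiltrating cells by a log2 fold change of -6.28 for *C3* (SE 0.43, adjusted p = 1.4e-07), -6.09 for *Cfp* (SE 0.34, adjusted p = 3.6e-08) and -4.31 for *Cfb* (SE 0.34, adjusted p = 4.6e-07). *C3* and *Cfp* kept adjusted p under 0.05 in 16 of 16 alternatives. *Cfb* could be tested in only 11 of these and kept it there. With shared barcodes kept only where deepest, infiltrating cells held 505, 0 and 1 *Cfb* UMIs and microglia 39, 1 and 2. The *Cfb* difference therefore rests mainly on vehicle replicate 2. Neutrophils and infiltrating cells did not differ past the threshold for *C3* (log2 fold change 0.51, SE 0.25, adjusted p = 0.11) or *Cfp* (0.69, SE 0.26, adjusted p = 0.052). Both signs turn when library totals replace TMM scaling, to -0.23 for *C3* and -0.07 for *Cfp*, and *C3* kept its sign in 12 of 16 alternatives, from -1.90 to 0.90. Without vehicle replicate 2 both passed, at 0.90 for *C3* (adjusted p = 0.0023) and 0.85 for *Cfp* (adjusted p = 0.014). Nonclassical monocytes were lower than infiltrating cells in *C3* (-1.65, SE 0.27, adjusted p = 4.5e-05) and *Cfp* (-2.19, SE 0.35, adjusted p = 3.0e-05). The *C3* call was lost among cells with no UMI of another lineage list (-1.73, adjusted p = 0.40) and in 1 fit over all classes (adjusted p = 0.051), and *Cfp* passed in 13 of 13 alternatives.

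In single cells *C3* and *Cfb* were found together and apart. Of 202 infiltrating cells of vehicle replicate 2 thinned to 2000 UMIs, 93 held a *C3* UMI, 48 held a *Cfb* UMI and 30 held both. Another 63 held *C3* without *Cfb*, and 18 held *Cfb* without *C3*. Before thinning the shares were 59.7% of 320 cells for *C3* and 35.6% for *Cfb*. T cells thinned in the same way held *C3* in 0 of 88 cells, a count that allows up to 3.41% by a limit of 3 counts, and *Cfb* in 1 of 88. Of the infiltrating cells in the niacin libraries, 0 of 16 and 0 of 24 held *Cfb*, against 23.8% in vehicle replicate 2 (exact 95% interval from 18.1% to 30.2%, counting error only). The exact intervals of these 2 counts of 0 reach 20.6% and 14.2%, and the first overlaps that of vehicle replicate 2. Neutrophils with a *C3* UMI made up 56.0% of 25, 23.1% of 39 and 30.2% of 43 cells.

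The receptors of C3a and C5a divided the myeloid classes. *C3ar1* was found in microglia at 260, 206 and 205 CPM and in infiltrating cells at 209, 50.8 and 70.1 CPM, and these ranges overlap. It was near absent from neutrophils, with 0, 1 and 0 UMIs in 231 cells, and from nonclassical monocytes, with 0, 1 and 0 UMIs in 106 cells. *C5ar1* was highest in neutrophils, at 348, 218 and 193 CPM, followed by microglia at 84.9, 126 and 106 CPM. Every neutrophil library was above every microglial library. Nonclassical monocytes held 38.2, 96.1 and 31.1 CPM and infiltrating cells 65.6, 50.8 and 10.0 CPM of *C5ar1*, the latter from 145, 20 and 4 UMIs, and both ranges overlap each other. Without shared barcodes infiltrating cells held 56.5, 374 and 0 CPM of *C5ar1*, from 42, 5 and 0 UMIs.

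Neutrophils were higher than infiltrating cells in *C5ar1* by a log2 fold change of 3.28 (SE 0.37, adjusted p = 6.1e-05, edgeR's quasi-likelihood F-test, with p adjusted by Benjamini-Hochberg), which held in 15 of 15 alternatives from 2.43 to 3.79. They were lower in *C3ar1*, with a fitted change of -5.77 (adjusted p = 1.0e-04) that rests on 1 UMI in neutrophils and so depends on the prior count. Nonclassical monocytes were lower in *C3ar1* as well (-5.49, adjusted p = 1.1e-06), again on 1 UMI. For *C5ar1* their difference from infiltrating cells was 0.39 (SE 0.43, adjusted p = 0.55), from 0.02 to 0.94 over the alternatives. Microglia were higher than infiltrating cells in *C3ar1* by 0.86 (SE 0.30, adjusted p = 0.032), and this call was lost in 8 of 16 alternatives. Among these were the fits without niacin replicate 1 (0.52, adjusted p = 0.17), without niacin replicate 2 (0.74, adjusted p = 0.17) and without shared barcodes (0.56, adjusted p = 0.58). For *C5ar1* the difference was 0.92 (SE 0.36, adjusted p = 0.052). It passed the threshold in 7 of 16 alternatives, among them without vehicle replicate 2 (1.79, adjusted p = 8.3e-04) and without niacin replicate 1 (0.86, adjusted p = 0.013).

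After thinning, 36.7%, 31.5% and 30.8% of microglia held a *C3ar1* UMI and 10.9%, 20.6% and 19.0% a *C5ar1* UMI. In neutrophils *C5ar1* was held by 60.0%, 48.7% and 41.9% of cells, and *C3ar1* by 0 of 25, 0 of 39 and 0 of 43, which allows up to 12%, 7.69% and 6.98% by a limit of 3 counts (exact upper bounds 13.7%, 9.03% and 8.22%). T cells held *C5ar1* in 0 of 88, 0 of 72 and 0 of 101 cells. For *C3ar1* the T cells held 0 of 88, 1 of 72 and 0 of 101. The shares of both receptors in microglia, and of *C5ar1* in neutrophils, lay above those of T cells in each library.

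*Serping1*, the inhibitor among the 9, was close to absent from leukocytes. Choroid plexus cells, the epithelium that secretes cerebrospinal fluid, held 6, 7 and 2 UMIs, or 18.9, 6.18 and 2.08 CPM. Microglia held 3, 0 and 0 UMIs, and the other 5 classes held 0 UMIs in each library. The gene was too low to be tested in any of the comparisons.

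Read together over the comparisons, most members that could be tested moved between classes, as did a large part of all genes. Between microglia and infiltrating cells 4 of the 8 members tested were higher and 3 lower, when 21.8% of the 10351 genes tested were higher and 24.4% lower. The median log2 fold change was 0.89 over these members and 0.04 over all genes tested. Between neutrophils and infiltrating cells 1 of 7 was higher and 4 were lower, when 21.7% of all 5116 genes were higher and 25.5% lower. Between nonclassical monocytes and infiltrating cells 6 of 7 were lower, when 15.6% of 4957 genes were lower and 12.5% higher. *C1qa* (-3.43, SE 0.35), *C1qb* (-3.09, SE 0.36) and *C1qc* (-3.10, SE 0.37) were among them. With shared barcodes kept only where deepest, the order of these chains turned in niacin replicate 1 and held in the other libraries. Nonclassical monocytes of niacin replicate 1 then held 61.6, 68.8 and 43.5 CPM, and infiltrating cells 30.5, 44.1 and 37.3 CPM. Choroid plexus cells were lower than microglia in 5 of 5 members tested, from -6.11 for *C1qa* to -5.50 for *C5ar1*, when 39% of 10505 genes were lower and 33.3% higher. In each case a member that passed the filter on low counts could do so through the class where it is high, so these counts do not describe all 9 genes. Scaling by library totals in place of TMM moved the median of all genes by 0.31 between microglia and infiltrating cells, by -0.75 for neutrophils, 0.17 for nonclassical monocytes and -0.54 for choroid plexus cells. The share of calls that were higher went from 47.2% to 62.8%, from 46.0% to 18.7%, from 44.5% to 57.7% and from 46.1% to 33.6% in the same order.

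**Figure D3:**
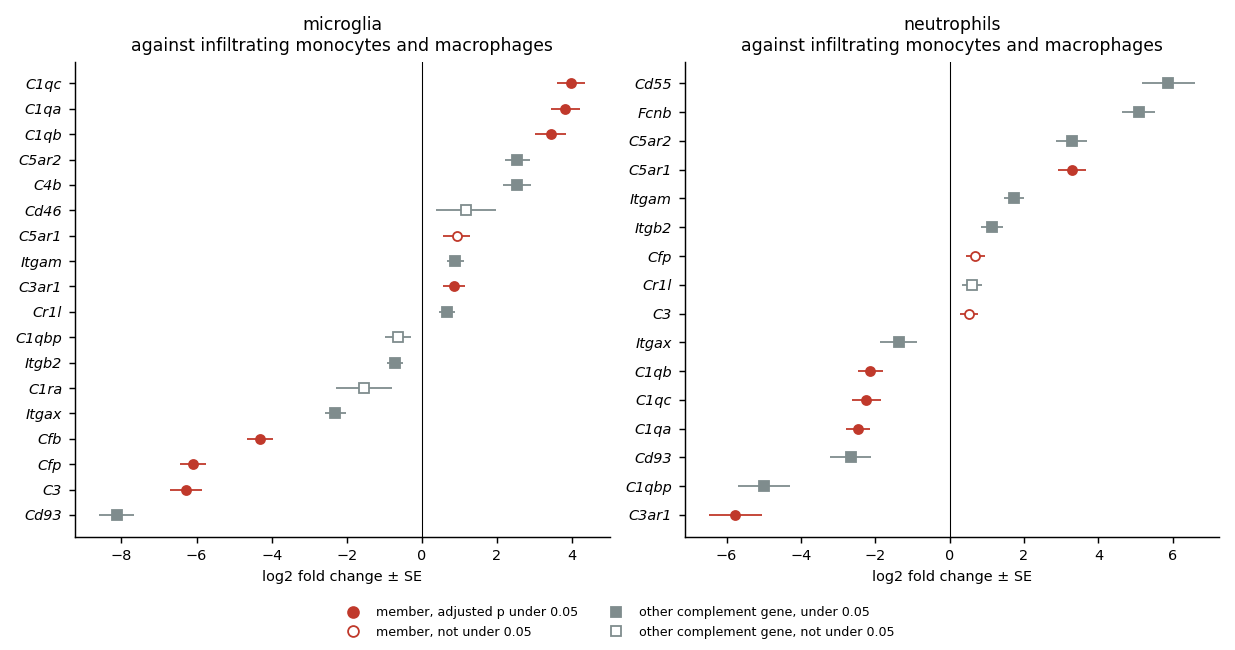
Log2 fold change with SE (horizontal axis) for the members (circles) and other complement genes (squares) tested between microglia and infiltrating cells (left) and between neutrophils and infiltrating cells (right), filled where the adjusted p is under 0.05. On the left the C1q chains are at 3.43 to 3.98 and *C3* and *Cfp* at -6.28 and -6.09, and on the right *C5ar1* is at 3.28 and *C3ar1* at -5.77.

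Other complement genes were divided between the classes too. Of 43 genes described from the pathway list outside the members 42 were measured, and 10 could be tested between microglia and infiltrating cells, of which 4 were higher and 3 lower. Complement C4 (*C4b*), cleaved by the classical pathway, stood at 182, 31.0 and 36.2 CPM in microglia and 24.4, 10.2 and 0 CPM in infiltrating cells (log2 fold change 2.53, SE 0.37, adjusted p = 1.0e-04). The second C5a receptor, *C5ar2*, was higher in microglia (2.54, SE 0.33, adjusted p = 4.2e-05), as were *Itgam* (0.88), a chain of complement receptor 3, and *Cr1l* (0.67), a membrane regulator. *Cd93* (-8.13, on 3 UMIs in microglia), *Itgax* (-2.31) and *Itgb2* (-0.71) were lower. *Cd46*, *C1ra* and *C1qbp* did not pass. With so few UMIs on one side the fitted size depends on the prior count. Under library totals the call and sign of *C4b*, *C5ar2* and *Itgax* were as given here.

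Of 9 other pathway genes tested between neutrophils and infiltrating cells, 5 were higher and 3 lower. *C5ar2* was higher together with *C5ar1* (3.28, SE 0.42, adjusted p = 1.2e-04), as were *Fcnb* (5.08), a ficolin of the lectin pathway, *Cd55* (5.88), *Itgam* (1.73) and *Itgb2* (1.14). *C1qbp* (-4.99, on 2 UMIs in neutrophils), *Cd93* (-2.66) and *Itgax* (-1.37) were lower, and *Cr1l* did not pass. Of 6 tested between nonclassical monocytes and infiltrating cells, *Itgax* (1.48), *Itgb2* (1.36) and *Cr1l* (0.91) were higher and *Cd93* (-5.25, on 1 UMI) and *C1qbp* (-1.69) lower. Of 13 tested between choroid plexus cells and microglia, 7 were higher and 6 lower. Clusterin (*Clu*, 10.74), vitronectin (*Vtn*, 8.79, on 1 microglial UMI), *Cd59a* (7.88), *Cd59b* (7.75, on 1 microglial UMI) and *Cd55* (6.34) were higher in choroid plexus cells, as were *C1ra* (2.39) and *C1qbp* (1.00). *Clu* stood at 2129 ± 342 CPM there (SD, n = 3 libraries) and *Cd59a* at 243 ± 25.9. In the same comparison *Itgam* (-5.64), *C5ar2* (-4.99), *C4b* (-4.87), *Itgb2* (-3.52), *Cr1l* (-2.08) and *Itgax* (-1.92) were lower. *Cd55* was highest in B-lineage cells, at 237 ± 117 CPM.

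Activation was read from 7 genes, *Cst7*, *Lpl*, *Spp1*, *Gpnmb*, *Ch25h*, *Cxcl13* and *Axl*, in microglia thinned to 2000 UMIs. Cells with at least 2 UMIs of the list numbered 31, 11 and 19, and cells with none 207, 619 and 590. Another 37, 31 and 38 cells had exactly 1 UMI and were left out, so the split is a range of a score and not a type. Without shared barcodes 14, 3 and 11 activated and 190, 419 and 545 other cells remained. Shared barcodes were thus more common among activated cells in each library, and their part in the differences below was not tested. None of the 5 members tested passed the threshold by edgeR's quasi-likelihood F-test, with p adjusted by Benjamini-Hochberg, when 2.8% of the 4354 genes tested were higher and 2.09% lower, or 4.89% in either direction. 1 of the 5 had an unadjusted p under 0.05, and DESeq2 called 0 of the 4 to which it gave an adjusted p (*C5ar1* had none). The C1q chains differed by 0.05 (*C1qa*, SE 0.20), 0.09 (*C1qb*, SE 0.20) and 0.25 (*C1qc*, SE 0.20) on the log2 scale. *C3ar1* stood at 435, 500 and 184 CPM in activated and 205, 210.0 and 190 CPM in other microglia (0.80, SE 0.30, adjusted p = 0.14), and passed with 1 activation UMI as the minimum (0.77, adjusted p = 0.0029), while over 13 alternatives it ran from -1.39 to 1.05. *C5ar1* rested on 0, 3 and 2 UMIs in activated cells (-1.29, SE 0.65, adjusted p = 0.33). Of 7 further pathway genes tested 2 were higher. *Itgax*, a chain of complement receptor 4, was higher at 145, 136 and 78.9 CPM against 29.0, 3.23 and 6.78 (3.04, SE 0.47, adjusted p = 9.0e-05). These *Itgax* levels rest on 9, 3 and 3 UMIs in activated and 12, 4 and 8 in other cells. Without shared barcodes activated cells held 4, 1 and 1. *C4b* was higher in the fit (2.11, SE 0.46, adjusted p = 0.0047), with 23, 0 and 10 UMIs in activated cells, so niacin replicate 1 did not show it. Its call was lost without vehicle replicate 2 (2.30, adjusted p = 0.29), without niacin replicate 2 (1.54, adjusted p = 0.12) and after thinning to 1000 UMIs (0.98, adjusted p = 0.61). Neither gene passed the filter on low counts without shared barcodes.

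**Figure D4:**
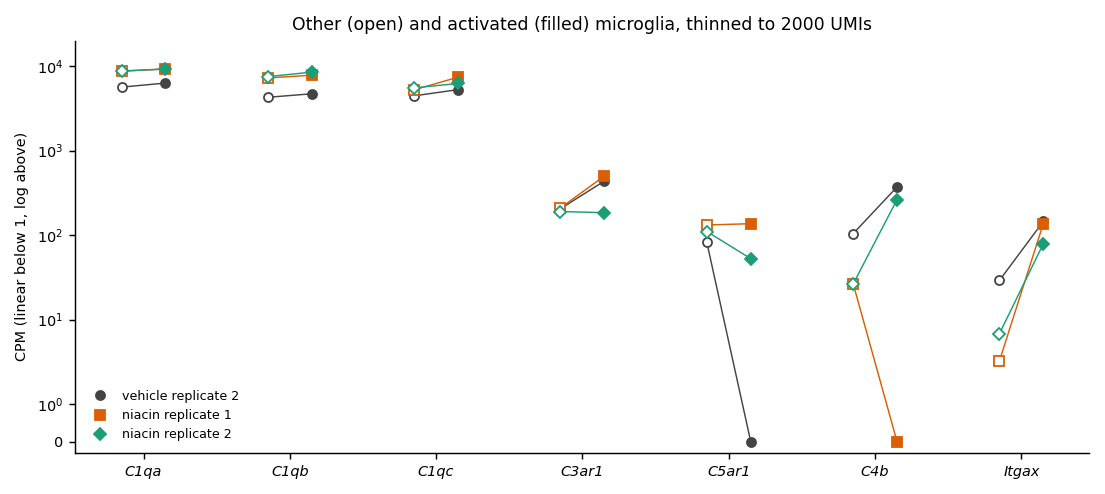
CPM (vertical axis, linear below 1 and logarithmic above) of 5 members and 2 other complement genes in activated (filled) and other (open) microglia thinned to 2000 UMIs, joined within each library. *Itgax* is higher in activated cells of each library, *C4b* in 2 of 3 libraries, with 0 UMIs in niacin replicate 1, and the C1q chains lie close together.

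In microglia *Cfb* and *C3* were the members that differed most between niacin and vehicle. This comparison asks whether treatment went with other complement RNA within a class, and the values below compare 3 libraries and not 2 conditions. In microglia *Cfb* was 35.8 and 26.7 times as high in vehicle replicate 2 as in niacin replicates 1 and 2, on 39 against 2 and 3 UMIs. Over both niacin libraries pooled the log2 ratio of niacin to vehicle was -4.92, with a 95% interval from -6.62 to -3.58 that covers counting error only. *C3* was 13.4 and 6.54 times as high, on 51 against 7 and 16 UMIs. Both were low in microglia in all libraries, and infiltrating cells, where these genes are high, made up 21.1% of the kept cells of vehicle replicate 2 and 8.28% and 6.63% of the niacin libraries. Their part in the microglial values was not tested. Without shared barcodes vehicle microglia held 22 *C3* UMIs (13.4 CPM), against 4 and 11 (1.77 and 2.85 CPM), and 10 *Cfb* UMIs against 1 and 1.

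In CPM, C1q in microglia was higher in both niacin libraries than in the vehicle library. *C1qa* was 1.43 and 1.40 times, *C1qb* 1.59 and 1.60 times and *C1qc* 1.17 and 1.15 times the vehicle level in niacin replicates 1 and 2. There were 0.788 *C1qc* UMIs per *C1qa* UMI in vehicle replicate 2 and 0.645 and 0.647 in the niacin libraries, and 0.766, 0.856 and 0.872 *C1qb* UMIs per *C1qa* UMI. Per UMI of *Cst3*, *Sparc* and *Selplg*, microglial genes outside the class rule, summed C1q was 0.612 in vehicle replicate 2 and 0.525 and 0.489 in the niacin libraries, the opposite order. Without shared barcodes these ratios were 0.536, 0.522 and 0.481, and among cells with no UMI of another lineage list 0.500, 0.522 and 0.485. The direction of C1q between the libraries therefore depends on the scaling, and the second scale was chosen after seeing the data. *C5ar1* was 1.48 and 1.25 times and *C3ar1* 0.790 and 0.787 times the vehicle level. By a limit of 1.5-fold in the same direction in both niacin libraries, *C1qb* was higher and *C3* and *Cfb* lower, so 1 and 2 of 7 members, when 7.03% of 10776 genes were higher and 9.44% lower. Kept only where deepest, shared barcodes left the same counts, 1 and 2 of 7, when 7.13% of 10741 genes were higher and 9.76% lower. The median log2 ratio was 0.21 over these members and -0.06 over all genes.

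In infiltrating cells 4 of 8 members, *C1qc*, *C3*, *C3ar1* and *Cfb*, were at least 1.5-fold lower in both niacin libraries and none was higher, when 18.8% of 7819 genes were lower and 11.5% higher. *Cfb* was 12.9 and 15.2 times as high in vehicle replicate 2. With shared barcodes kept where deepest, which left 301, 20 and 26 cells, it stood at 230 CPM against 0 and 3.33 CPM. Without shared barcodes it stood at 187 CPM in 182 vehicle cells and at 0 UMIs in the 5 and 10 niacin cells. *C3ar1* was 4.11 and 2.98 times as high in vehicle replicate 2 in every cell counted, but without shared barcodes, where the niacin cells held 2 and 8 *C3ar1* UMIs, the mean log2 ratio of *C3ar1* turned to 0.10. The ratios of all 3 C1q chains turned as well, and that of *Cfp*. Without shared barcodes 1 of 8 members was lower and 0 higher, when 26.6% of 4193 genes were lower and 6.25% higher. Among cells with no UMI of another lineage list (65, 68 and 67 cells), 4 of 6 members were higher and 1 lower, when 13.9% of 1381 genes were higher and 14.3% lower, so the direction of the members in this class depends on which cells are counted. *Cfb* was the member lower in both niacin libraries there, at 187 against 102 and 60.9 CPM. In neutrophils *C5ar1* was 1.60 and 1.80 times as high in vehicle replicate 2, and 1 of 6 members was lower and none higher, when 38.4% of 3368 genes were lower and 5.52% higher.

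**Figure D5:**
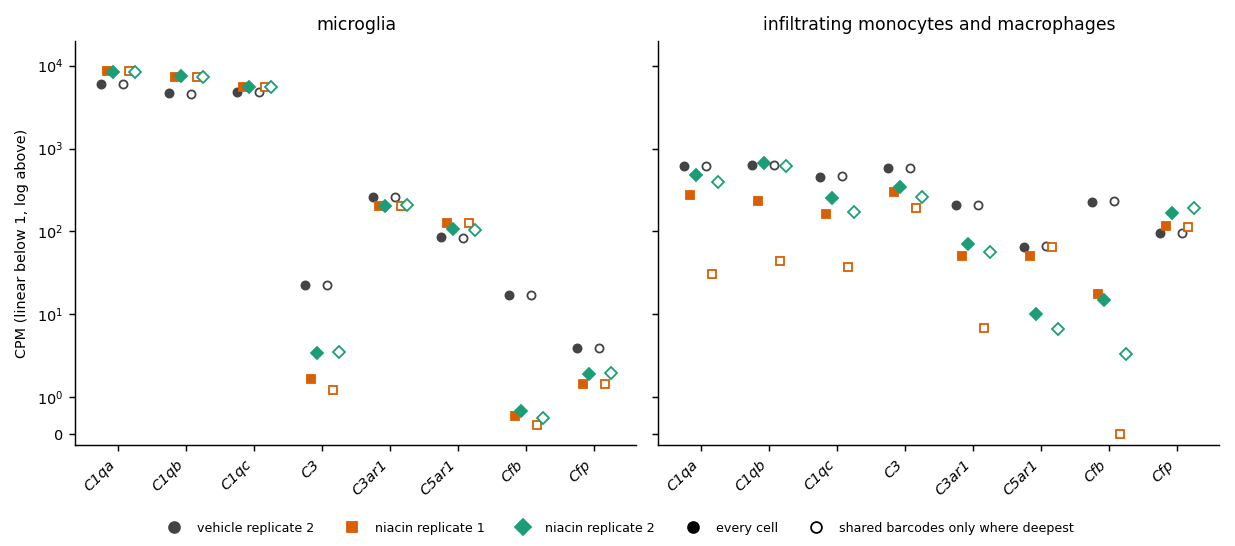
CPM (vertical axis, linear below 1 and logarithmic above) of 8 members in microglia (left) and infiltrating cells (right) in each library, with every cell (filled) and with shared barcodes kept only where deepest (open). In microglia filled and open points lie close together, while in infiltrating cells of niacin replicate 1 *C1qa* moves from 272 to 30.5 CPM and *Cfb* from 17.8 CPM to 0.

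The genes whose class pattern was most like that of a member were found by Pearson correlation of log2(CPM + 10) over the 21 sums of 7 classes and 3 libraries, among 5916 genes. The points share libraries and free RNA. For mean C1q these were *Cttnbp2nl* (r = 0.986), *Rab3il1* (0.986), *Mertk* (0.974), a receptor kinase for uptake of dying cells, *Adap2* (0.973) and *Stab1* (0.973), a scavenger receptor. *Mertk*, for example, had a mean of 734 CPM in microglia, 46.3 CPM in infiltrating cells and at most 4.10 CPM in the other 5 classes. For *C3* they were *Plbd1* (0.951), *Gyg* (0.939), *Emilin2* (0.928), *Msrb1* (0.915) and *Gda* (0.913), and for *Cfp* *Pira2* (0.965), *Wfdc17* (0.907), *Rgs18* (0.898), *Plaur* (0.891) and *Plbd1* (0.889). With a pseudocount of 1, 4 of the 5 genes for C1q, 2 of 5 for *C3* and 3 of 5 for *Cfp* stayed on the list.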

How the data were processed

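Female mice bearing GBM gave 3 Chromium 3′ v3.1 libraries. The deposited UMI counts were made by the authors with Cell Ranger 3.1 (STAR, mm10), with no normalization. Replicates are pools of mice. The libraries held 2270, 2145 and 2532 barcodes.

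A cell took the class of the list with most of its marker UMIs (at least 2 UMIs and 66.7% of all marker UMIs), and was called erythroid at 20% hemoglobin UMIs. This scoring rule was set after the data were seen, and no doublet caller was run. Counts were summed per class and library and fitted in edgeR 4.0.16 (quasi-likelihood F-test, TMM scaling, the filterByExpr filter, a block for the library), with p adjusted by Benjamini-Hochberg across the genes of each fit. The SE of a log2 fold change was its absolute value divided by the square root of F. It is thus derived from the test and is least reliable for genes with few UMIs on one side. Counts with known changes were simulated for microglia and for neutrophils against infiltrating cells. Most changed genes were called there, with the right sign. The changes were placed on genes with enough counts in each sum, and the fitted sizes were not checked. CPM have exact Poisson and shares exact Clopper-Pearson 95% intervals, which cover counting error only. Where a class had 0 UMIs, up to 3 counts were allowed. DESeq2 1.42.0 and other scalings, filters, class rules, barcode sets and depths were alternatives. R 4.3.3, Python 3.11.15, numpy 2.4.6, scipy 1.17.1 and pandas 2.3.3 were used.

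The members, lists and tests were chosen with earlier results of these data known. Named genes were the 9 members, other pathway genes that passed a test or reached 50 CPM in a class, and the 5 genes most like C1q, *C3* and *Cfp*. Results for 2 genes, 1 of them on the pathway list, are not reported here.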

Additional observations from a re-analysis of the deposited data

Results flagged for a closer look

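*C5ar1* differed in opposite directions in the vehicle and niacin libraries between nonclassical monocytes and infiltrating monocytes and macrophages. The level in nonclassical monocytes minus that in infiltrating cells was -27.4 CPM in vehicle replicate 2, 45.3 CPM in niacin replicate 1 and 21.1 CPM in niacin replicate 2. The vehicle value rests on 3 *C5ar1* UMIs in 19 nonclassical monocytes, and the difference between vehicle and niacin was not tested.

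Border-associated macrophages, macrophages of the meninges and perivascular spaces, were too few for the comparisons, with 7 cells over all libraries. Pooled, they held *C1qa* at 8516 CPM (183 UMIs), *C3ar1* at 652 CPM (14 UMIs) and *C5ar1* at 326 CPM (7 UMIs), each above the pooled level of every class compared. *C1qb* and *C1qc* were not above every class in this way, and the *C1qa* level was below the 8645.5 CPM of microglia in niacin replicate 1. The border-associated macrophages held 1 *C3* UMI and 0 of *Cfb* and *Cfp*.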

How the results depend on the processing

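Differences of members between classes or states were recomputed under the alternative settings, which gave 462 results over members, comparisons and settings. Settings in which a member could not be tested are not among them. Of these results 439 kept their side of the threshold, 11 lost the call, 12 gained it and 0 turned sign past the threshold. Genes called between microglia and infiltrating cells numbered 4775, and 1915 among cells with no UMI of another lineage list, 1418 without shared barcodes and 1630 after thinning to 2000 UMIs, with 3458 to 4644 when 1 library was left out. The same settings gave 146, 374 and 480 in place of 2419 for neutrophils (1948 to 2817 with 1 library left out). For nonclassical monocytes 1392 became 775 with DESeq2, 875 with no replicate block, 45 with no UMI of another list, 162 without shared barcodes, 821 with shared barcodes only where deepest, 741 in cells of at least 2000 UMIs and 208 after thinning (826 to 1345 with 1 library left out, the lowest without niacin replicate 2). For choroid plexus cells 7594 became 2789 with no UMI of another list and 4427 after thinning (6395 to 7826). For activated microglia 213 became 117 with DESeq2, 61 with no replicate block, 31 without shared barcodes and 105 after thinning to 1000 UMIs (61 without vehicle replicate 2, 120 without niacin replicate 1, 95 without niacin replicate 2), and could not be fitted with no UMI of another list. Genes past 1.5-fold with niacin went from 2368 to 1377 without shared barcodes and 390 with no UMI of another list in infiltrating cells, and from 1480 to 591 and 23 in neutrophils. Mean log2 niacin ratios in infiltrating cells turned without shared barcodes and with no UMI of another list for *C1qa* (from -0.78 to 0.78 and 2.24), *C1qb* (from -0.67 to 1.25 and 2.13), *C1qc* (to 0.53 and 2.86) and *C3ar1* (to 0.10 and 0.92). That of *C3* turned only with no UMI of another list (0.15), and that of *Cfp* only without shared barcodes (from 0.52 to -0.40). Summed C1q in microglia turned from 0.47 in CPM to -0.27 per UMI of *Cst3*, *Sparc* and *Selplg*. The cause was not tested. Settings that leave out cells also test fewer genes. No paired analysis was possible because vehicle and niacin share only the number 2.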

Other observations

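Infiltrating monocytes and macrophages of vehicle replicate 2 were also read by whether a cell had a UMI of *Arg1*, an enzyme of tumor-associated macrophages, a split chosen after seeing the data. *Arg1* is also on the marker list that defines this class. The 74 cells with *Arg1* (median 10474.5 UMIs) held *C3ar1* at 351 CPM, *C5ar1* at 131 CPM and *C3* at 456 CPM, and the 246 cells without it (median 2388.5 UMIs) held 137, 32.7 and 643 CPM. The cells with *Arg1* were thus the deeper ones, and the part of depth was not tested. Without shared barcodes *C3ar1* stood at 257 CPM (38 cells) against 130 CPM (144 cells). *C1qa* stood at 830 CPM with *Arg1* against 513 CPM without it in every cell, and at 247 against 270 CPM without shared barcodes.

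The 497 cells with markers of several lists held *C1qa* at 866, 927 and 1112 CPM and *C3* at 103, 26.0 and 53.7 CPM, levels between those of microglia and infiltrating cells for *C1qa* and between the same classes for *C3*.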
